A study of Rattus norvegicus with 17 samples.

Results

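The kidney transcript assembly behind these data holds many short stretches of transcribed sequence that no gene name covers. The loci described here are those listed without a gene name in the 1/3Nx gene table, with a span under 2000 bp and at least 1 FPKM in sham kidney. FPKM, the number of mapped fragments divided by feature length and by library size, is a level per length. At a short span, few fragments can thus give a high FPKM. Fragment counts are not given, so how many fragments lie behind a high FPKM is not known. By that rule 2335 loci were found among 126306 listed features, of which 94457 carry no name and 71796 are unnamed and under 2000 bp. The loci were thus selected on their sham FPKM. A sham level above the surgery level is favoured by that choice in both comparisons, so all fold changes below are descriptions.

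The study set male Sprague Dawley rats with reduced kidney mass against sham-operated rats. In the 5/6Nx group (n = 6) the right kidney and a large part of the left had been removed. The 1/3Nx group (n = 6) had had that part of the left kidney taken and kept its right kidney, and the Sham group (n = 5) had kept both kidneys. All rats were 9 weeks old on arrival, received a Dyets chow given as 0.4% in the labels, were operated on at 10 weeks and were sampled 6 weeks later. Total RNA of the left kidney was sequenced, although the protocol text also speaks of small RNA libraries, and that wording was not settled. The expression tables give 1 FPKM value per group and no value per rat.

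An assembler that joins RNA-seq reads into transcripts also reports pieces that do not connect to any annotated exon. In kidney and other tissues such pieces commonly lie just past the annotated end of a gene, where messenger RNAs with longer 3′ ends run on, or beside its start, where divergent transcription begins. Others are fragments of precursor RNAs, among them the primary transcripts of microRNAs, which the nuclease Drosha cuts on both sides of a hairpin before Dicer releases the mature microRNA.

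Of the 2335 loci, 7 overlapped or ended within 10 bp of a feature that the tables name as a microRNA. All 7 names had a mature sequence in RefSeq (assembly GRCr8), and 6 of them, those with the locus directly beside the microRNA, are shown here to say which microRNA each locus adjoins. Each is written 5′ to 3′ with the seed, bases 2 to 8, in capitals.
let-7d-5p: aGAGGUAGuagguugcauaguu
let-7i-5p: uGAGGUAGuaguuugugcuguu
miR-142-3p: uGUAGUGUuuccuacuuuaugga
miR-142-5p: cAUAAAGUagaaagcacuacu
miR-24-3p: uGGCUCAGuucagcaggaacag
miR-101a-3p: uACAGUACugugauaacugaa
miR-425-5p: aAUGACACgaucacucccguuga
let-7d and let-7i share the seed GAGGUAG of the let-7 family, and the other 5 printed seeds occur once each in this set. The sequences of the unnamed loci themselves were not analysed here.

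The libraries held between 59.0 and 104 M reads, of which 62.6% to 90.5% mapped. Within 5/6Nx, replicate 3 mapped at 62.6% and replicate 5 at 77.2%, and since each table gives a group value, no result could be recomputed without them. Marker genes of the nephron were present: in the authors' deposited table for 1/3Nx, the 29 single-name features of the proximal tubule list summed to 29598 FPKM in 1/3Nx and 43555 FPKM in sham. Markers of exocrine pancreas, a tissue that borders the left kidney, summed to 1459 FPKM in 1/3Nx and 206 FPKM in sham over 15 features in that deposited table, where 1 of the 15 reached 1 FPKM in sham. In the authors' deposited table for 5/6Nx the pancreas sum was 1031 FPKM in 5/6Nx and 103 FPKM in sham. None of the 2335 loci lay within 5 kb of a gene of the pancreas list, and the part of such tissue in the results below was not tested. The sham values of the 2335 loci were 2.00 times as high in the 1/3Nx table as in the 5/6Nx table (median ratio), so levels are compared within a table.

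Most of the loci were small and weakly transcribed. Their span ran from 200 to 1998 bp with a median of 364 bp, and 644 loci spanned 200 to 249 bp. The tables list 1 transcript for 2301 loci and several for the other 34. Sham levels in the authors' deposited 1/3Nx table had a median of 1.61 FPKM, 1468 loci lay between 1 and 2 FPKM, and 135 loci reached 20 FPKM. Together the 2335 loci made up 2.05% of the summed sham FPKM of all features, and the 10 highest loci held 22.9% of the loci's own sum. Chromosome 1 carried 262 of the loci, 29 lay on sequences not placed on a chromosome, and the Y chromosome and the mitochondrial sequence carried 1 each.

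**Figure D1:**
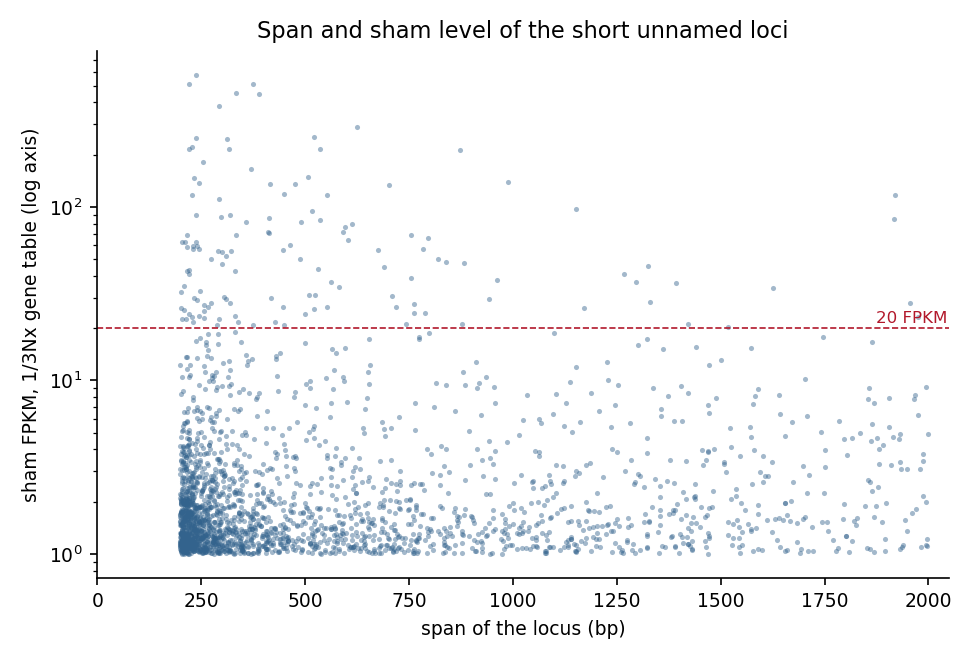
Each point is one of the 2335 short unnamed loci, with its span in bp on the x axis and its sham FPKM from the 1/3Nx gene table on a log y axis. By level, 1468 points lie at 1 to 2 FPKM. By span, 644 lie at 200 to 249 bp and 770 at 250 to 499 bp. The 135 loci above the dashed line at 20 FPKM occur mostly at spans under 1000 bp.

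At the edges of the rule, MSTRG.86209 (1998 bp) and MSTRG.46560 (1996 bp) were the longest loci kept, with 4.89 and 1.22 FPKM in sham in the authors' deposited 1/3Nx table. MSTRG.761 (2003 bp) and MSTRG.60285 (2004 bp) were just too long, with 1.38 and 1.13 FPKM in sham in the authors' deposited 1/3Nx table. By level, MSTRG.16222 and MSTRG.91774 were the lowest kept, at 1.00005 and 1.00016 FPKM in sham, while MSTRG.58334 and MSTRG.98469 missed the limit at 0.999945 and 0.999219 FPKM in the same authors' deposited table. These loci were picked as the nearest to each limit, so their closeness to it follows from that choice.

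The loci kept close company with named genes. Of the 2335, 1406 (60.2%) overlapped a named feature or lay within 5 kb of one, and 923 (39.5%) within 1 kb. Overlap itself was rare, at 15 loci (0.642%). Among 9982 unnamed loci under 2000 bp with a sham level above 0 and below 1 FPKM, 34.5% lay within 5 kb of a named feature, and among 59479 listed at 0 in sham, 16.5% did. Unnamed loci of 2000 bp or more at 1 FPKM or more in sham numbered 2020, of which 56.5% overlapped a named feature and 81.0% lay within 5 kb. The median distance was 2132 bp for the 2335 loci, 11448 bp for the weaker ones and 29232 bp for those at 0. Another 265 of the 2335 loci (11.3%) lay more than 50 kb from any named feature, and 12 were on sequences with none. The sets also differ in span, with medians of 364 bp for the 2335 loci, 411 bp for the weaker ones and 257 bp for those at 0, and no test of the differences in distance was made. Of unnamed loci under 2000 bp at 0 in sham, 56555 were listed at 1 FPKM or more in 5/6Nx, so that set was not at 0 in every group.

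**Figure D2:**
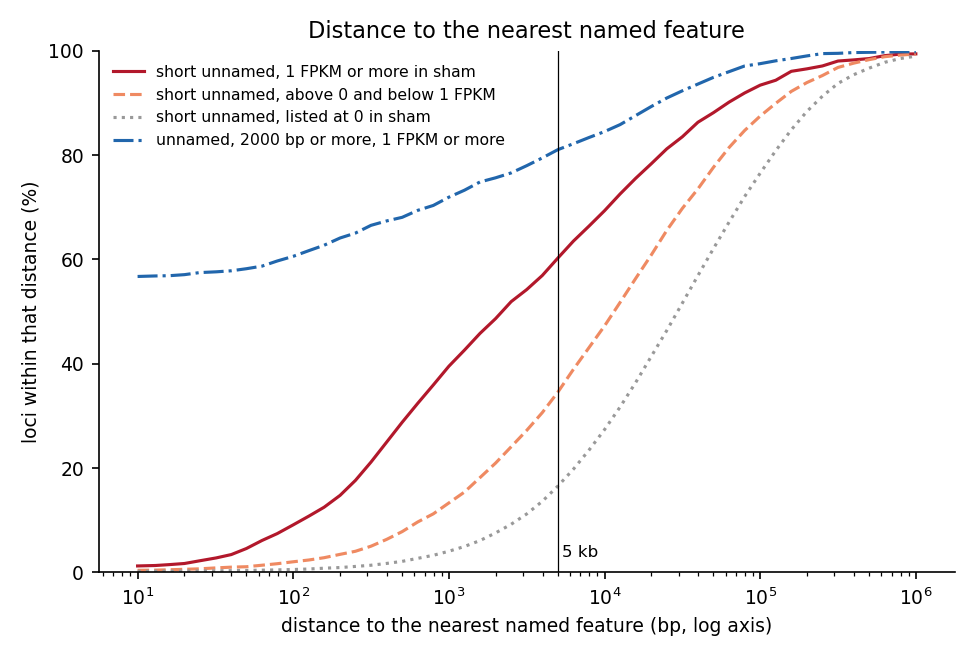
The lines give the percent of loci (y axis) whose nearest named feature lies within the distance on the x axis (bp, log axis), for the short unnamed loci at 1 FPKM or more in sham and for 3 other sets of unnamed loci. At the vertical line at 5 kb the solid line stands at 60.2%, against 34.5% for loci above 0 and below 1 FPKM and 16.5% for loci listed at 0.

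Most of the loci near genes lay on the 3′ side. The strand of a gene was taken from RefSeq (GRCr8) and turned to the files' sequence by the order of neighbouring genes, which was possible for 12303 of 26804 features whose single name occurs once in the tables. Among the loci 1 to 5000 bp from their nearest named feature, 856 had a neighbour with a strand, of which 571 (66.7%) lay on its 3′ side and 285 on its 5′ side. For unnamed loci below 1 FPKM the 3′ share was 54.9% (1012 of 1843), and for loci listed at 0 it was 43.9% (1936 of 4407). Unnamed loci of 2000 bp or more at 1 FPKM or more in sham had a 3′ share of 70.7% (205 of 290). Within the 2335 the 3′ share was 62.3% at 1 to 2 FPKM, 64.7% at 2 to 5 FPKM, 79.5% at 5 to 20 FPKM and 91.8% (56 of 61) at 20 FPKM or more. The loci's own strand is not listed, so a 3′ position says where a locus lies and not which strand it is read from.

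Of the 10 highest loci, 5 lay on the 3′ side of their nearest gene and 5 had no side assigned; 7 lay within 5 kb of a named feature. MSTRG.75828 (chromosome 4, bases 78171824 to 78172061, as the tables give them) spanned 237 bp and had the highest sham FPKM of all the loci. It had 247 FPKM in 1/3Nx and 578 FPKM in sham in the authors' deposited table. It lay 559 bp after Atp6v0e2, which encodes a subunit of the vacuolar proton pump and which had 63.0 FPKM in 1/3Nx and 68.1 FPKM in sham in the authors' deposited table. The locus fell in 1/3Nx (log2 fold change -1.23 and q = 0.00183, from the authors' deposited table), while Atp6v0e2 stood at -0.11 (q = 0.849).

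MSTRG.34882 (chromosome 15, bases 3644258 to 3644632) lay 136 bp from Plau, the urokinase-type plasminogen activator, on its 3′ side. It had 271 FPKM in 1/3Nx and 512 FPKM in sham in the authors' deposited table, a fall (log2 fold change -0.92, q = 0.00183), against 0.06 for Plau (q = 0.932). MSTRG.48966, 207 bp past the 3′ end of Atp5a1, the alpha subunit of mitochondrial ATP synthase, had 207 FPKM in 1/3Nx and 454 FPKM in sham in the authors' deposited table. That locus fell as well (log2 fold change -1.13, q = 0.00183), while Atp5a1 had -0.33 (q = 0.600) in the authors' deposited table. The same held for loci beside Wbp2, a transcriptional coactivator, and Ghitm, a protein of the inner mitochondrial membrane: both loci fell, and neither gene passed the threshold.

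Of the 10 highest loci, 7 fell in 1/3Nx by the authors' q under 0.05 and none rose in the authors' deposited table, where log2 fold changes ran from -1.23 to -0.14. Beside MSTRG.75828, MSTRG.34882 and MSTRG.48966 these were MSTRG.18192 near Wbp2 (-1.18), MSTRG.72644 near Pmepa1 (-1.22), MSTRG.39418 near Ghitm (-0.98) and MSTRG.6427, 15164 bp from Vbp1 (-1.01), all in the authors' deposited table. The other 3 did not pass: MSTRG.49372 had q = 0.0887, MSTRG.55998 q = 0.0701 and MSTRG.86803, 506 bp from the GTPase gene Cdc42, q = 0.801 in the authors' deposited table. In 5/6Nx none of the 10 passed the authors' test, and 5 had a higher and 5 a lower value than sham. MSTRG.75828 had 480 FPKM in 5/6Nx and 290 FPKM in sham in the authors' deposited table (log2 fold change 0.73, q = 0.621). MSTRG.34882 had 108 FPKM in 5/6Nx and 256 FPKM in sham in the authors' deposited table (log2 fold change -1.25, q = 0.511). The difference between the surgeries was not tested. The 10 loci were picked as the highest in sham, and that choice favours lower values after surgery. Over all features tested in 1/3Nx, 2.44% passed as lower and 3.96% as higher.

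**Figure D3:**
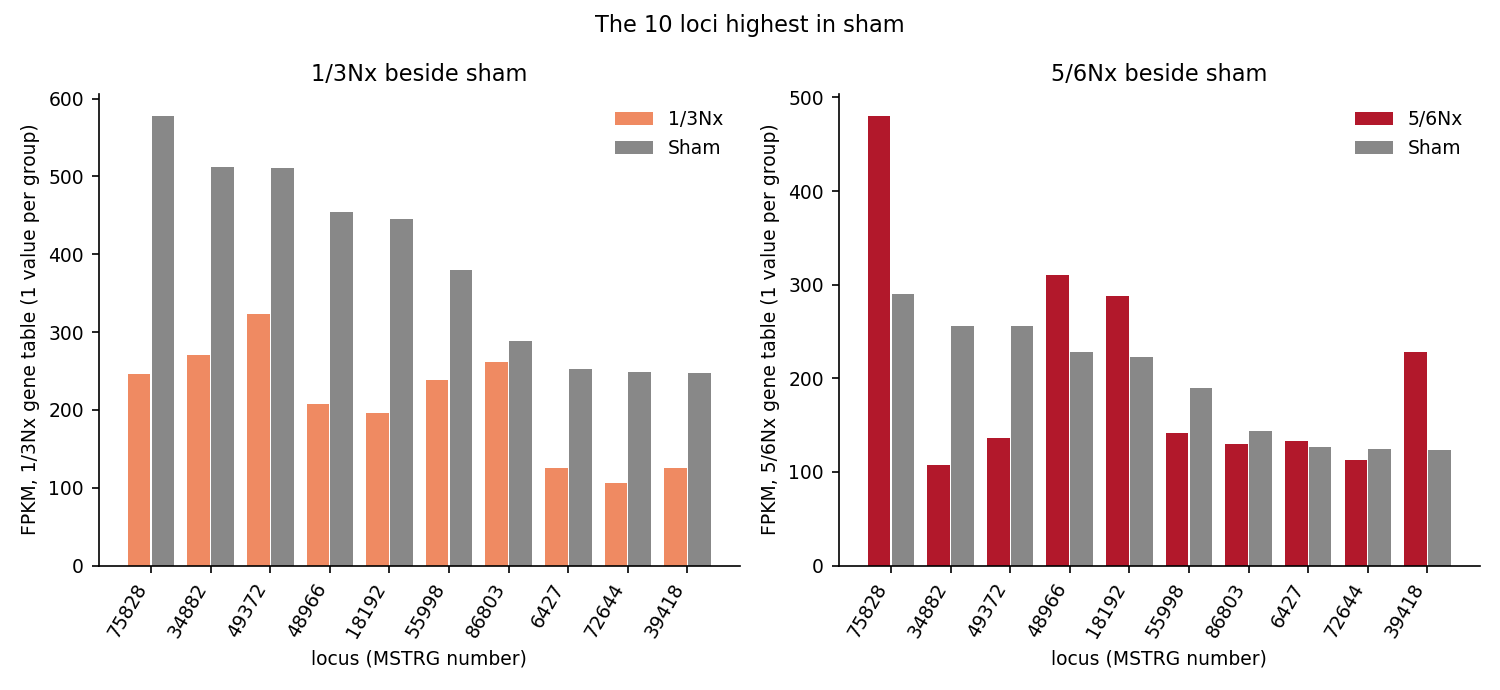
Bars give the authors' FPKM value per group (y axis) for the 10 loci highest in sham, with 1/3Nx beside sham on the left and 5/6Nx beside sham on the right; each group has 1 value and no error. All 10 loci stand lower in 1/3Nx than in sham, and 5 of the 10 stand lower in 5/6Nx than in sham. Choosing loci for a high sham value favours lower bars after surgery.

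In 1/3Nx, 2215 of the 2335 loci were tested by the authors and 36 passed q under 0.05 (1.63%), of which 6 rose and 30 fell. Over all 21217 features tested in the authors' deposited 1/3Nx table, 6.40% passed, 3.96% as higher and 2.44% as lower. Since the sham values of this contrast chose the loci, nothing is read from that difference. In whole kidney RNA, fewer cells that transcribe a locus and less RNA per cell cannot be told apart. The median log2 fold change of the loci was -0.65 in the authors' deposited table, against -0.36 for unnamed loci of 2000 bp or more, -0.01 for single-name features, both at 1 FPKM or more in sham, and -0.05 for all features tested. Of the tested loci 363 had a higher and 1852 a lower value in 1/3Nx than in sham, and 241 loci were listed at 0 in 1/3Nx. The opposite choice gave fewer loci: 1409 unnamed loci under 2000 bp reached 1 FPKM in 1/3Nx, against 2335 in sham, and 1166 reached it in both.

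The 6 loci that rose in 1/3Nx were longer than most, with a median span of 1038 bp, and 5 of them lay within 5 kb of a named feature. MSTRG.28001 (chromosome 13, bases 69103628 to 69104614) rose most, with 17.7 FPKM in 1/3Nx and 4.42 FPKM in sham in the authors' deposited table (log2 fold change 2.00, q = 0.00183). It lay 340 bp past the 3′ end of Fam129a, a stress-induced regulator of translation also called Niban, which rose too, with 7.39 FPKM in 1/3Nx and 1.23 FPKM in sham in the authors' deposited table (log2 fold change 2.59, q = 0.00183). MSTRG.39621, 639 bp from the 3′ end of the tropomyosin gene Tpm4, rose with 239 FPKM in 1/3Nx and 150 FPKM in sham in the authors' deposited table (log2 fold change 0.68, q = 0.0476). Tpm4 itself rose (1.16, q = 0.00183 in the authors' deposited table).

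Another locus that rose, MSTRG.27707, lay 19 bp from the 3′ end of Rgs18, a regulator of G-protein signalling known from platelets, and had 4.72 FPKM in 1/3Nx and 1.60 FPKM in sham in the authors' deposited table (log2 fold change 1.56, q = 0.00711). MSTRG.102131 lay 543 bp past the 3′ end of the ubiquitin protease gene Usp2 and had 31.5 FPKM in 1/3Nx and 18.9 FPKM in sham in the authors' deposited table (0.74, q = 0.0338). MSTRG.44014 rose by 1.05 (q = 0.00183 in the authors' deposited table) next to AABR07027575.1, on whose other side lay 2 more such loci, MSTRG.44011 and MSTRG.44012, with log2 fold changes of 1.00 (q = 0.530) and 1.02 (q = 0.0766). MSTRG.5315, which rose by 1.08 (q = 0.0380 in the authors' deposited table), lay 94737 bp from its nearest named feature.

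Of the 30 falls in 1/3Nx, 15 were loci at 20 FPKM or more in sham, 17 lay within 5 kb of a named feature and 4 were listed at 0 in 1/3Nx. The finite fall of greatest size was at MSTRG.91140, with 0.362 FPKM in 1/3Nx and 1.79 FPKM in sham in the authors' deposited table (log2 fold change -2.30, q = 0.0452). Next came MSTRG.92868 (0.394 FPKM in 1/3Nx and 1.58 FPKM in sham), MSTRG.5132 (log2 fold change -1.73), MSTRG.36513 beside the acetylcholine receptor gene Chrna2 (-1.69) and MSTRG.105884 near Snrpe, a core protein of the spliceosome (-1.60), in the authors' deposited table. MSTRG.47034 (-1.55), MSTRG.47022 near Cxxc5 (-1.52) and MSTRG.62336 on the 5′ side of Syde2 (-1.49) complete the 8 named by the rule in the authors' deposited table. The 4 loci that passed with 0 in 1/3Nx were MSTRG.110899, MSTRG.13396, MSTRG.94445 and MSTRG.85756, with 1.75, 1.96, 1.13 and 1.06 FPKM in sham in the authors' deposited table, and no fold is given for them.

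For 3 of the falls the nearest gene lay within 5 kb and fell as well. Farther off, 5352 bp from MSTRG.94445, Olr1088 also passed as lower, with 0 FPKM in 1/3Nx and 1.14 FPKM in sham (q = 0.00183). MSTRG.10158, on the 3′ side of Psat1, an enzyme of serine synthesis, had 19.8 FPKM in 1/3Nx and 48.3 FPKM in sham in the authors' deposited table (log2 fold change -1.29, q = 0.00183), and Psat1 had -0.95 (q = 0.00183). MSTRG.7120, beside the folate receptor gene Folr1, had 24.8 FPKM in 1/3Nx and 56.6 FPKM in sham in the authors' deposited table (-1.19, q = 0.00183), and Folr1 had -1.01 (q = 0.00335). MSTRG.71460, 58 bp from the 3′ end of Pxmp4, a peroxisomal membrane protein, had 25.2 FPKM in 1/3Nx and 50.1 FPKM in sham in the authors' deposited table (-0.99, q = 0.00335), and Pxmp4 had -0.64 (q just under the threshold).

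In 5/6Nx, 2095 of the loci were tested and 152 passed q under 0.05 (7.26%), of which 76 rose and 76 fell. Over all 103823 features tested in the authors' deposited 5/6Nx table, 58.0% passed, 57.9% as higher and 0.137% as lower. Most of those calls came from features outside the 2335: 56555 unnamed loci under 2000 bp were listed at 0 in sham and at 1 FPKM or more in 5/6Nx, where the 1/3Nx table has 20 such loci. With so many features passing, the highest p-value that still passed was 0.02895 in 5/6Nx, against 0.0032 in the 1/3Nx table. With q-values recomputed over features at 1 FPKM or more in sham in the 1/3Nx table alone, 7 of the loci passed. Of these, 1 was higher and 6 were lower, and 0.417% of 15809 features passed. The 6 lower loci had 0.595 to 0.996 FPKM in sham in the 5/6Nx table. The same recomputation for 1/3Nx left 34 of the loci, 5 higher and 29 lower, and 5.65% of 15951 features.

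The median log2 fold change of the loci in 5/6Nx was -0.55 in the authors' deposited table, against -0.45 for unnamed loci of 2000 bp or more, -0.17 for single-name features and 0.61 for all features with a finite value. The loci also spread wider in 5/6Nx than in 1/3Nx: the middle 80% of log2 fold changes lay between -2.30 and 1.58 in 5/6Nx and between -2.01 and 0.23 in 1/3Nx. Both comparisons use the same sham rats, so they are not independent of each other.

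**Figure D4:**
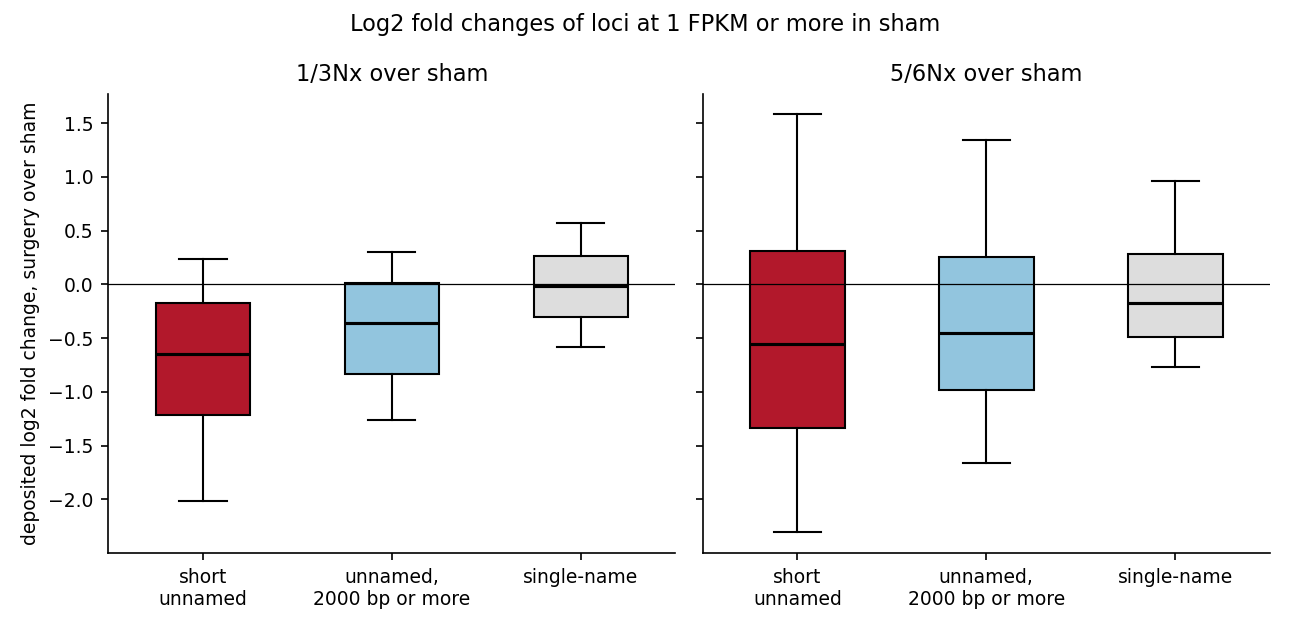
Boxes give the middle 50% and the median, and whiskers the middle 80%, of the deposited log2 fold changes of surgery over sham (y axis) for tested features with a finite value, in 3 sets at 1 FPKM or more in sham. The short unnamed loci have the lowest median in both panels, -0.65 in 1/3Nx and -0.55 in 5/6Nx.

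The rises in 5/6Nx reached very high listed FPKM values, mostly from loci that were near the lower limit in sham. The 76 loci had a median of 29.7 FPKM in 5/6Nx and 0.690 FPKM in sham in the authors' deposited table, with log2 fold changes from 1.34 to 9.53, and 55 of them reached 4 or more. The largest was MSTRG.91774, in a stretch 132606 bp from Rad51b, with 370 FPKM in 5/6Nx and 0.501 FPKM in sham in the authors' deposited table (log2 fold change 9.53, q = 0.0285). MSTRG.58270 followed with 400.2 FPKM in 5/6Nx and 0.835 FPKM in sham in the authors' deposited table (8.90, q = 0.0290). MSTRG.106316 (8.54), MSTRG.34910 (8.33), MSTRG.108068 (7.87), MSTRG.73532 (7.87), MSTRG.103321 (7.85) and MSTRG.74245 (7.71) complete the 8 largest rises in the authors' deposited table. Usp54, 7063 bp from MSTRG.34910, rose too, with 200 FPKM in 5/6Nx and 1.41 FPKM in sham (log2 fold change 7.15, q = 9.20e-05). For the other loci of the 8, the nearest named feature did not pass in 5/6Nx. These 8 spanned 200 to 281 bp, and in 1/3Nx all 8 had a value below sham, from 0 to 0.628 FPKM, with no call in the authors' deposited table. At such short spans a high FPKM can rest on few fragments. The part of span in these 5/6Nx values was not tested.

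Of the 135 loci at 20 FPKM or more in sham, 3 passed in 5/6Nx, all as higher. Among all features tested there, 57.9% passed as higher and 0.137% as lower. MSTRG.40970 (216 bp, 8465 bp from Mtus1) had 882 FPKM in 5/6Nx and 29.6 FPKM in sham in the authors' deposited table (log2 fold change 4.90, q = 0.00248). MSTRG.112772, the locus on the mitochondrial sequence (bases 15557 to 16313), had 448 FPKM in 5/6Nx and 19.3 FPKM in sham in the authors' deposited table (4.54, q = 0.0322). In 1/3Nx that locus had 52.4 FPKM, against 38.7 FPKM in sham in the authors' deposited table (0.44, q = 0.323). MSTRG.23505, 38 bp from the 3′ end of the mitochondrial hydrolase gene Abhd11, had 124 FPKM in 5/6Nx and 48.9 FPKM in sham in the authors' deposited table (1.34, q = 0.0397).

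The single rise that also passed with recomputed q-values was MSTRG.11059, 128 bp on the 5′ side of Kif11, a motor protein of the mitotic spindle, chosen for mention after its values were seen. It had 18.6 FPKM in 5/6Nx and 1.31 FPKM in sham in the authors' deposited table (log2 fold change 3.82, q = 9.20e-05). Kif11 itself had 11.0 FPKM in 5/6Nx and 6.26 FPKM in sham in the authors' deposited table (0.81, q = 0.659). The locus had 1.05 FPKM in 1/3Nx and 2.61 FPKM in sham in the authors' deposited table (-1.32, q = 0.236).

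The falls in 5/6Nx were of another kind, since 74 of the 76 were loci listed at 0 in 5/6Nx, with a median span of 234 bp over the 76. The 2 with a finite value were MSTRG.37054 and MSTRG.110631. MSTRG.37054 had 0.177 FPKM in 5/6Nx and 1.29 FPKM in sham in the authors' deposited table (-2.86, q = 0.0408). MSTRG.110631 had 0.242 FPKM in 5/6Nx and 1.70 FPKM in sham in the authors' deposited table (-2.82, q = 0.0499). Among the loci at 0, MSTRG.13396, MSTRG.91140 and MSTRG.110899 had the smallest p-values, at 0.996, 0.895 and 0.889 FPKM in sham in the authors' deposited table. MSTRG.32293, MSTRG.41665 and MSTRG.83019 followed, with 0.981, 0.822 and 0.595 FPKM in sham in the authors' deposited table. MSTRG.85756, which passed as lower with 0 FPKM in 1/3Nx, rose in 5/6Nx, with 9.49 FPKM in 5/6Nx and 0.538 FPKM in sham in the authors' deposited table (log2 fold change 4.14, q = 0.00248).

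Zeros were most frequent among the shortest and the weakest loci in both surgery groups. Of 644 loci of 200 to 249 bp, 196 (30.4%) were listed at 0 in 1/3Nx and 215 (33.4%) in 5/6Nx; of 437 loci of 1000 to 1999 bp, 2 and 4 were. All loci at 0 in a surgery group had under 5 FPKM in sham, and 182 were at 0 in both surgery groups. By span the median log2 fold change in the authors' deposited 1/3Nx table was -1.09 at 200 to 249 bp, -0.80 at 250 to 499 bp, -0.53 at 500 to 999 bp and -0.38 at 1000 to 1999 bp. The 5/6Nx medians for the same steps of span were -0.34, -0.66, -0.55 and -0.51 in the authors' deposited table, so the order by span differed between the surgeries. By sham level it was -0.75 at 1 to 2 FPKM, -0.65 at 2 to 5 FPKM, -0.32 at 5 to 20 FPKM and -0.46 at 20 FPKM or more in the authors' deposited 1/3Nx table. The 5/6Nx medians for the same steps of level were -0.69, -0.61, -0.33 and -0.16 in the authors' deposited table.

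The fold changes of the stronger loci followed the order of their genes' fold changes more closely than those of the weaker loci. For 1108 loci within 5 kb of a single-name gene, not overlapping it, with finite values for both, the Spearman correlation of the log2 fold changes of locus and gene in 1/3Nx was 0.33 across loci. It was 0.23 at 1 to 2 FPKM (626 loci), 0.37 at 2 to 5 FPKM (270 loci), 0.54 at 5 to 20 FPKM (128 loci) and 0.67 at 20 FPKM or more (84 loci). Loci at 5 FPKM or more gave 0.71 on the 3′ side (125 loci) and -0.31 on the 5′ side (19 loci) in 1/3Nx. At 20 FPKM or more the median log2 fold change was -0.49 for the loci and 0.11 for their 78 genes, so the median of the loci lay below that of the genes. In 5/6Nx the correlation was 0.20 over 1086 loci and 0.31 at 20 FPKM or more, where the median was -0.15 for the loci and -0.50 for the genes, the opposite order. Loci at 5 FPKM or more gave 0.26 on the 3′ side (125 loci) and 0.18 on the 5′ side (20 loci) in 5/6Nx. Locus and gene share libraries and scaling, some genes have several loci, and the correlations are given as descriptions.

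**Figure D5:**
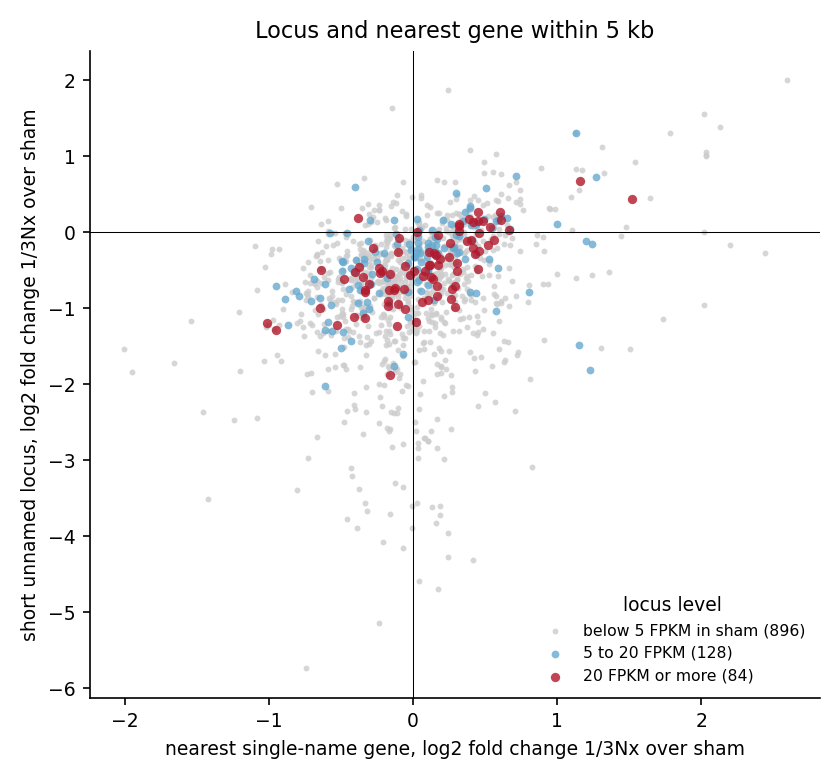
Each point is a short unnamed locus within 5 kb of a single-name gene, with the gene's log2 fold change of 1/3Nx over sham on the x axis and the locus's own on the y axis, coloured by the locus's sham level. The 84 loci at 20 FPKM or more form a rising band (Spearman correlation 0.67) that lies mostly below 0 on the y axis, while loci below 5 FPKM scatter down to about -6.

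Single-name genes that passed the authors' test in 1/3Nx had 60 of the loci beside them. Of 43 loci near 39 genes that fell, 42 had a lower value in 1/3Nx than in sham, and 3 of them passed; the exception was MSTRG.4856 near Ush1c (log2 fold change 0.33 in the authors' deposited table). Of 17 loci near 16 genes that rose, 10 had a higher value and 2 passed. In 5/6Nx, 20 loci with a finite log2 fold change for locus and gene lay near genes that rose. Of these, 10 had a higher and 10 a lower value than sham and 2 passed as higher. The median log2 fold change was 0.01 for the loci and 3.70 for the genes. MSTRG.20015, MSTRG.21224 and MSTRG.79057 also lay near genes that rose but lacked a finite value for locus or gene. Each had a lower value in 5/6Nx than in sham. Both of the 2 loci near genes that fell in 5/6Nx had a lower value there than in sham, and neither passed. In 1/3Nx, among 1048 loci near genes that did not pass, 879 had a lower value, so a lower value was common there too. Loci with a higher value beside a gene that rose included MSTRG.102915 near Loxl1, an enzyme that crosslinks elastin and collagen, with 3.01 FPKM in 1/3Nx and 1.21 FPKM in sham in the authors' deposited table (1.31, q = 0.368). MSTRG.69619, 27 bp on the 5′ side of Thbs1, the matrix protein thrombospondin, went against its gene, with 1.89 FPKM in 1/3Nx and 5.29 FPKM in sham in the authors' deposited table (-1.49, q = 0.107), while Thbs1 rose (1.15, q = 0.00183).

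Some of the loci lay beside well-known cell-type genes of the kidney. Of 15 gene lists of nephron segments, other cells, pathways and neighbouring tissues, with 270 genes, 7 lists had a locus within 5 kb of a member, 17 loci in all. The proximal tubule list had 6, the loop of Henle and distal nephron list 3, and the collecting duct, mitochondrial energy and ribosome lists 2 each. The glomerulus and immune lists had 1 each. The 8 lists with none were those of tubular injury, matrix, immediate early genes, small noncoding RNA hosts, pancreas, liver, muscle with fat and urothelium, and red blood cells. Each list holds a choice of genes, so the loci near Loxl1 and Thbs1 above are not counted under matrix. The share of all named genes with such a locus was not computed, so the 17 are not read as few or many. Of the 17 loci, 1 passed in 1/3Nx, MSTRG.48966 near Atp5a1, and none passed in 5/6Nx. Among all features tested, 6.40% passed in 1/3Nx and 58.0% in 5/6Nx, and nothing is read from the count.

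MSTRG.81448, 75 bp from Slc7a13, an amino acid transporter of the proximal tubule, had 2.13 FPKM in 5/6Nx and 17.0 FPKM in sham in the authors' deposited table (log2 fold change -3.00, q = 0.182), and Slc7a13 had -2.84 (q = 0.191). MSTRG.72637, past the 3′ end of Pck1, the rate-limiting enzyme of gluconeogenesis, had 4.12 FPKM in 1/3Nx and 10.1 FPKM in sham in the authors' deposited table (-1.29, q = 0.278). MSTRG.99877, 123 bp past the 3′ end of the water channel gene Aqp2, had 1.44 FPKM in 1/3Nx and 2.53 FPKM in sham in the authors' deposited table (-0.81, q = 0.268). MSTRG.75570, beside the calcium channel gene Trpv5, was the only locus of the 11 near nephron genes with a higher value in 1/3Nx, 2.78 FPKM against 1.47 FPKM in sham in the authors' deposited table (0.92, q = 0.200). None of these passed the threshold.

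Other loci near list genes had no call in either surgery. Beside nephron genes, MSTRG.21478 near Cldn16, a claudin of the thick ascending limb, had a log2 fold change of -0.51 in 1/3Nx, MSTRG.81321 near the calcium-binding protein gene Calb1 had -0.54 and MSTRG.81450 near the proton pump gene Atp6v0d2 had -0.17 in the authors' deposited table. MSTRG.102297, 3797 bp from the feature of Sidt2 and the smooth muscle gene Tagln, had 32.4 FPKM in 5/6Nx and 0.751 FPKM in sham in the authors' deposited table (5.43, q = 0.115). MSTRG.37172 near Tpt1 had 20.6 FPKM in 5/6Nx and 3.45 FPKM in sham (2.58, q = 0.0974), and MSTRG.62963 near the class II histocompatibility gene RT1-Ba had 2.59 FPKM in 5/6Nx and 0.838 FPKM in sham (1.63, q = 0.201), in the authors' deposited table. MSTRG.6974 near the ribosomal protein gene Rps3 had 1.01 FPKM in 1/3Nx and 1.02 FPKM in sham in the authors' deposited table (-0.02).

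The loci beside the microRNAs shown above had levels of 1.04 to 9.52 FPKM in sham, and none of them passed in either surgery. MSTRG.43242, 6 bp from Mirlet7d, had 12.4 FPKM in 1/3Nx and 9.52 FPKM in sham in the authors' deposited table (log2 fold change 0.38, q = 0.646). MSTRG.96661, 5 bp from Mirlet7i, which carries the same seed, had 6.56 FPKM in 1/3Nx and 4.09 FPKM in sham in the authors' deposited table (0.68, q = 0.518). In 5/6Nx the pair had -0.09 (q = 0.954) and 0.70 (q = 0.656) in the authors' deposited table. No value of either locus was beyond the authors' threshold.

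MSTRG.16154 ended 1 bp from Mir142, whose microRNAs are abundant in blood-derived cells. It had 2.63 FPKM in 5/6Nx and 0.520 FPKM in sham in the authors' deposited table (2.34, q = 0.214), and 2.55 FPKM in 1/3Nx and 1.04 FPKM in sham in the 1/3Nx one (q = 0.371). MSTRG.50706, 5 bp from Mir24-2, had 3.26 FPKM in 1/3Nx and 1.49 FPKM in sham in the authors' deposited table (1.14, q = 0.0865). MSTRG.84566, 2 bp from Mir101a, had 7.53 FPKM in 1/3Nx and 6.97 FPKM in sham in the authors' deposited table (0.11, q = 0.916). MSTRG.105272, 8 bp from Mir425, had 1.48 FPKM in 1/3Nx and 2.21 FPKM in sham in the authors' deposited table (-0.58, q = 0.767). The microRNA features were themselves listed at 0 in both groups of the authors' deposited 1/3Nx table, except Mir142 with 3.44 FPKM in 1/3Nx and 5.00 FPKM in sham. The seventh, MSTRG.66057, overlapped Mir2964 and was listed at 0 in both surgery groups, with 1.46 FPKM in sham in the 1/3Nx table and a call as lower in 5/6Nx (q = 0.0384) in the authors' deposited tables.

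Small structural RNAs accounted for 7 of the 15 overlaps. MSTRG.61431 (874 bp) overlapped a copy of SNORA24, a small nucleolar RNA that guides RNA modification, and had 144 FPKM in 1/3Nx and 212 FPKM in sham in the authors' deposited table (log2 fold change -0.56, q = 0.162). MSTRG.46867 (989 bp) overlapped SNORA13 and had 103 FPKM in 1/3Nx and 140 FPKM in sham in the authors' deposited table (-0.44, q = 0.369). The SNORA24 and SNORA13 features were listed at 0 in sham and at 2.17 and 2.33 FPKM in 1/3Nx in the authors' deposited table. MSTRG.14579 around SNORD49 (0.35), MSTRG.92947 around SCARNA13 (-0.36), MSTRG.31662 around SNORA26 and SNORA27 (0.19), MSTRG.57785 at SNORA17 (-1.58) and MSTRG.60121 at U2 (0.62) did not pass in 1/3Nx in the authors' deposited table.

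Some genes had several such loci. Counting loci within 5 kb of each other as a group, 2037 stood alone and 298 fell into 144 groups, of which 135 were pairs, 8 were triples and 1 held 4. The group of 4 lay on the 3′ side of Mtpn, which encodes myotrophin, 283 to 3161 bp from it. From nearest to farthest its loci had 70.9, 62.2, 50.9 and 0.380 FPKM in 1/3Nx, against 59.1, 56.1, 71.2 and 1.85 FPKM in sham in the authors' deposited table. Their log2 fold changes were 0.26, 0.15, -0.49 and -2.29, and that of Mtpn was 0.45, in the authors' deposited table; the farthest locus was also the weakest, and none passed. In 1 of the triples, MSTRG.108551 and MSTRG.108552 followed Bzw1, a regulator of translation, at 562 and 1504 bp, with 89.9 and 77.6 FPKM in 1/3Nx and 82.0 and 89.2 FPKM in sham in the authors' deposited table. The third locus of that triple, MSTRG.108553, was nearest to Clk1, at 2280 bp, and had 0.776 FPKM in 1/3Nx and 1.41 FPKM in sham in the authors' deposited table. The locus on the Y chromosome, MSTRG.116242, had 34.9 FPKM in 1/3Nx and 29.1 FPKM in sham in the authors' deposited table (0.26, q = 0.814).

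On the 5′ side of genes, 96 loci lay within 250 bp of the gene's listed interval. The highest were MSTRG.77454, 46 bp before Slc6a6, the taurine transporter, and MSTRG.1989, 147 bp before Agpat4, an enzyme of phospholipid synthesis. The 250 bases before each gene's start in RefSeq (GRCr8) are shown, 5′ to 3′ along the gene, with each CG in capitals. They give the RefSeq promoters of these genes, and the loci were not placed on GRCr8. The Slc6a6 stretch is chr4:125752252-125752501 on the plus strand and the Agpat4 stretch chr1:51180972-51181221 on the minus strand, and these positions are not those of the deposited tables.
Slc6a6: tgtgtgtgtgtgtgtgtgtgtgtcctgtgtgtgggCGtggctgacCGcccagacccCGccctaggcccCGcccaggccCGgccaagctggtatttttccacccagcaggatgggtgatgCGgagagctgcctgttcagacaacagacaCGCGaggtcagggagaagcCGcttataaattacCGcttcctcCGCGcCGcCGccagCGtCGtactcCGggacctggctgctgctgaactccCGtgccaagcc
Agpat4: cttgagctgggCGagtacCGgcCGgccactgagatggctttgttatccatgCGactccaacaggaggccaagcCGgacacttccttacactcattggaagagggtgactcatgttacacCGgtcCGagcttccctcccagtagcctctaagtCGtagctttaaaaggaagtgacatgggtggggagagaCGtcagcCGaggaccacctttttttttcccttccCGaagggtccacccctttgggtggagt
The Slc6a6 stretch holds 18 CG and a match to TATAAA, and the Agpat4 stretch 11 CG and no match, on either strand.

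Promoter windows of 300 bases had a median of 25 CG for 273 genes with a locus on their 5′ side within 5 kb, 19 for 538 genes with a locus on their 3′ side, and 21 for 7557 genes with a strand and 1 FPKM or more in sham. Over all 24206 RefSeq windows the median was 8. TATAAA, searched on both strands, occurred in 6.59%, 7.43%, 6.39% and 14.3% of these windows, in the same order. A match is a run of letters and not a bound site, and no test was made. MSTRG.77454 had 56.9 FPKM in 1/3Nx and 76.7 FPKM in sham in the authors' deposited table (log2 fold change -0.43, q = 0.272), and Slc6a6 had 0.11 (q = 0.874). MSTRG.1989 had 6.94 FPKM in 1/3Nx and 25.5 FPKM in sham in the authors' deposited table (-1.88, q = 0.171), and Agpat4 had -0.16 (q = 0.814). As a set, loci on the 5′ side had a median log2 fold change of -0.75 in 1/3Nx (265 loci) and those on the 3′ side -0.53 (560 loci) in the authors' deposited table; 1 of 278 tested 5′ loci passed and 12 of 568 tested 3′ loci passed. In 5/6Nx the medians were -0.49 and -0.31 in the authors' deposited table, with 15 of 270 and 25 of 553 passing. Over all tested features, 6.40% passed in 1/3Nx and 58.0% in 5/6Nx. The sides also differed in level, with 5 of the 5′ loci and 56 of the 3′ loci at 20 FPKM or more in sham. They were not tested against each other.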

How the data were processed

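Total RNA of 17 left kidneys was sequenced. TopHat2 2.1.1, StringTie, Cufflinks 2.2.1, cutadapt, FastQC and build rn5 are listed, without roles, per the submitters' processing notes. Feature and sequence names include ones of a later assembly, so the build is not settled and positions are as deposited. Per the file headers, the authors deposited 1 FPKM per group, a log2 fold change, a p-value and a q-value for each feature. The sequencing summary gives, per the file headers, a count of reads, percent mapped, percent of bases of quality 30 or more and a quality score, by the authors. With group values alone, no SD, standard error or test across rats could be computed, and the authors' q under 0.05 is the threshold. A log2 fold change that is not finite, because a group is at 0, was left out of medians and ranked after finite ones.

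Loci with no gene name, a span (end minus start) under 2000 bp and at least 1 FPKM in sham in the 1/3Nx gene table were taken, and the same identifiers were read in the 5/6Nx table. The nearest named feature was found by position, and near means overlapping or within 5 kb. The ends of a gene are those of its listed interval, which can differ from an annotated start or end. Positions of 610 features with several names came from the isoform table. Recomputed Benjamini-Hochberg q-values matched the deposited ones to 5.25e-07, and this step and the neighbour search were tested on simulated data. Named loci are the 10 highest in sham, the 8 largest rises and falls that passed in each surgery, the mitochondrial locus, up to 2 loci per gene list and those at the limits; loci at microRNAs, overlaps, groups and promoters were added after their values were seen. One locus that this rule names is not reported here. The loci and lists were chosen with earlier results of these data known. Python 3.11.15, numpy 2.4.6, pandas 2.3.3 and scipy 1.17.1 were used.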

Additional observations from a re-analysis of the deposited data

Results flagged for a closer look

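Library 5/6Nx replicate 5 stood apart in depth, with 104 M reads (M for mega) against 59.0 to 73.0 M reads in the other 5 libraries of its group. Its gap to the nearest library was 0.685 of the group's range, above Dixon's critical value of 0.625 for 6 samples. Of 9 sets of values checked (reads, percent mapped and percent of bases of quality 30 or more in each group) this was the only one past its critical value, and chance passes about 1 in 20. The share of this library in the 5/6Nx values of the short unnamed loci was not tested, as the tables give group values.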

How the results depend on the processing

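No paired analysis was possible because the tables hold group values, and leaving out single rats could not be run for the same reason. The number of loci was 867 with a sham minimum of 2 FPKM and 872 with the minimum applied to the 5/6Nx table. Loci passing in 5/6Nx numbered 36 with 2 FPKM (20 higher, 16 lower). They numbered 7 with q-values recomputed over features at 1 FPKM or more in sham in the 1/3Nx table, with fewer features tested. Loci passing in 1/3Nx stayed between 27 and 34 under every alternative run, against 36. The median log2 fold change in 1/3Nx (-0.65) was -0.43 with a pseudocount of 1 FPKM, -0.65 over all loci above 0 in both groups, -0.72 with a span limit of 1000 bp, -0.52 with 2 FPKM, -0.56 when either group could reach 1 FPKM, and -0.69 with loci at 0 ranked lowest, an alternative chosen after seeing the data. In 5/6Nx (-0.55) these were -0.26, -0.57, -0.56, -0.40, 8.90 and -0.61. The reversal to 8.90 comes with the construction, since it lets in loci chosen for their 5/6Nx level, and 56622 more had no finite value. The percent near a named feature (60.2%) was 39.5% within 1 kb, 69.3% within 10 kb, 48.7% for single-name features at 1 FPKM or more alone and 65.4% with 2 FPKM.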

Other observations

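Of 135 loci at 20 FPKM or more in sham, 109 had a lower and 26 a higher value in 1/3Nx than in sham in the authors' deposited table, and 15 of the 16 that passed were lower. The same 135 loci had 82 lower and 53 higher values in 5/6Nx in the authors' deposited table, and the 3 that passed were higher. Both counts use the sham values that chose the loci. Among all features tested, 3.96% passed as higher and 2.44% as lower in 1/3Nx, and 57.9% and 0.137% in 5/6Nx. Of the 135, 99 lay within 5 kb of a named feature. MSTRG.58545, 566 bp past the 3′ end of Mfsd1, a lysosomal transporter, had 107 FPKM in 1/3Nx and 214 FPKM in sham in the authors' deposited table (log2 fold change -1.01, q = 0.00598), and Mfsd1 had -0.05 (q = 0.932). MSTRG.23026, 13234 bp from Micall2, had 12.8 FPKM in 1/3Nx and 27.7 FPKM in sham in the authors' deposited table (-1.11, q = 0.0195), and 34.0 FPKM in 5/6Nx and 13.9 FPKM in sham (1.29, q = 0.350). The 2 surgeries were not tested against each other.

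A count of unnamed loci under 2000 bp by level gave 63957 at 1 FPKM or more in 5/6Nx and 872 in sham in the authors' deposited 5/6Nx table. In the authors' deposited 1/3Nx table the same count gave 1409 in 1/3Nx and 2335 in sham. Of the 2335 loci, 847 reached 1 FPKM in 5/6Nx in the authors' deposited table. What sets the 5/6Nx count apart was not tested.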
